A study of Mus musculus with 21 samples.

Results

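The interneuron identity genes are 29 listed genes that mark inhibitory neurons of the cortex: enzymes and a transporter for the transmitter GABA, transcription factors of the interneuron lineage, and markers of interneuron subtypes, without the neuropeptides. Rows were taken by gene symbol alone. All 29 symbols were listed in each of the 4 deposited tables, out of 22040 genes listed in at least 1 table.

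RNA had been sequenced from primary cortical neurons, cultured from newborn WT mouse pups or from pups with the transgene hTau P301S, which expresses mutant human tau from a prion promoter (Tau neurons). Cultures received AdipoRon, an agonist of the adiponectin receptors, or its vehicle DMSO for 24 h. There were 5 cultures of Tau neurons with DMSO, 5 of Tau neurons with AdipoRon, 5 of WT neurons with DMSO and 6 of WT neurons with AdipoRon, and all cultures were given 1 μM AraC to remove dividing glia. According to the methods, Tau neurons had also been seeded with pre-formed tau fibrils on day 7, 18 days before the end of culture. The paper's results section, however, times the RNA of both genotypes from seeding, so whether WT cultures were seeded is unclear. If they were not, the transgene and the fibrils cannot be told apart. The tags of the samples give AdipoRon at 10 μM, whereas the deposited protocol gives 10 mM, and, per the study's reporting summary, the same animals supplied both treatments, so the AdipoRon and DMSO pools share animals.

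The measurement used here is the mean level of each gene over the cultures of a table, which the authors gave as log2 CPM (read counts scaled to library size, on the log2 scale of edgeR). Each table holds 2 of the 4 groups, so each gene has 4 means: a DMSO pool (10 cultures, Tau and WT), an AdipoRon pool (11 cultures, Tau and WT), a Tau pool (10 cultures, both treatments) and a WT pool (11 cultures, both treatments). These are the authors' means and carry no spread over cultures. Whether a difference between pools is larger than the spread between cultures was therefore not tested, no group can be said to overlap another or not, and no p-value is given. The AdipoRon and DMSO pools share no culture, and neither do the Tau and WT pools, but both differences are built from the same 21 cultures and so are not independent of each other. The tables may have been normalised separately, which touches every difference between pools. Over all genes, the median difference was 0.02 on the log2 scale for AdipoRon pool minus DMSO pool and 0.00208 for Tau pool minus WT pool.

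GABAergic interneurons are the local inhibitory cells of the cortex, and they arise in the ganglionic eminences of the ventral forebrain before migrating into the cortex. Dlx factors specify the whole lineage, and Nkx2-1, Lhx6, Sox6 and Satb1 the cells of the medial eminence that become parvalbumin and somatostatin neurons. Prox1 and Nr2f2 are prominent in other branches. Mature classes are told apart by calcium binding proteins, secreted proteins and surface proteins, and Gad1, Gad2 and Slc32a1 are shared by nearly all of them.

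Nos1 and Lamp5 lay farthest apart between the AdipoRon and DMSO pools, on opposite sides, and their promoters are shown for that reason. Sequences are from RefSeq on GRCm38.p6, run 5′ to 3′ on the plus strand of the gene, and cover 250 bases before to 50 after a transcription start. Nos1 (neuronal nitric oxide synthase) lies at chr5:117866839-117958840, with its promoter at chr5:117866589-117866888. Lamp5 (a membrane protein of the LAMP family that marks neurogliaform cells) lies at chr2:136052025-136069917, with starts whose promoters are at chr2:136052089-136052388 and chr2:136057498-136057797. Capitals mark CGTCA, the reverse complement of TGACG, the short form of the cyclic AMP response element.
Nos1: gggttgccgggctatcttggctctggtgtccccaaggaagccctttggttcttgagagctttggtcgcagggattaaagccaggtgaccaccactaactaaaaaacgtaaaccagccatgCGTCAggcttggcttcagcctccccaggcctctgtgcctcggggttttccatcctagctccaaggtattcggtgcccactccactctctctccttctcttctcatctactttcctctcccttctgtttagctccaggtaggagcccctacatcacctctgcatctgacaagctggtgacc
Lamp5, upstream start: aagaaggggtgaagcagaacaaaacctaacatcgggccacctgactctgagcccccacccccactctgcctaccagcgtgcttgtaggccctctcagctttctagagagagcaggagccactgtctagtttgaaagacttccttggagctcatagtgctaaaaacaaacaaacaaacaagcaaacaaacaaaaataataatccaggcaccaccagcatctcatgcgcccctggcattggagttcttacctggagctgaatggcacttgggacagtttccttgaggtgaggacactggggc
Lamp5, downstream start: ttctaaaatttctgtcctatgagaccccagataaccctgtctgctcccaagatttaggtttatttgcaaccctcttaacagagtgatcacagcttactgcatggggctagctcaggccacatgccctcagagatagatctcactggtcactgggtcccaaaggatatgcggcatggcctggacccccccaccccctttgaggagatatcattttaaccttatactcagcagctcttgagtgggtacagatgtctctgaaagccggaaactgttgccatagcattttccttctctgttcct

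Of the 29 members, 23 had an entry in the promoter table, with 38 promoters in all, and Dlx5, Dlx6, Maf, Ndnf, Calb1 and Calb2 are named only. Each motif was searched on both strands. The full cyclic AMP response element TGACGTCA was in 0 of the 38 member promoters and in 1.79% of all 32851 promoters. Its short form TGACG, which the full element contains, was in 5 of the 38 member promoters (Dlx2, Gad2, Nkx2-1, Nos1 and Sox6) and in 20.8% of all promoters. The AP-1 site TGANTCA was in 1 of the 38 (Lhx6) against 7.81% of all, and the homeodomain core TAATTA in 1 of the 38 (Adarb2) against 5.29%. The counts among the 38 member promoters are small, and whether they differ from the shares over all promoters was not tested. Neither Lamp5 promoter window held any of these motifs. Both windows lie inside the interval given for the gene, so the bases before its first position were not searched. The matches describe letters in a window, not bound sites.

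The genes for GABA synthesis and transport were among the most abundant members. Gad1, the larger glutamate decarboxylase, had a mean of 9.40 log2 CPM in the DMSO pool, 9.12 in the AdipoRon pool, 9.26 in the Tau pool and 9.27 in the WT pool. Gad2, the second glutamate decarboxylase, stood at 8.18, 7.96, 8.08 and 8.06 in the same order. Slc32a1, the vesicular GABA transporter, stood at 8.12, 8.06, 8.07 and 8.11. All 3 means were lower in the AdipoRon than in the DMSO pool, by 0.28, 0.22 and 0.06 on the log2 scale. Of all genes, 13.4%, 16.7% and 34.8% had a lower difference than Gad1, Gad2 and Slc32a1.

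**Figure D1:**
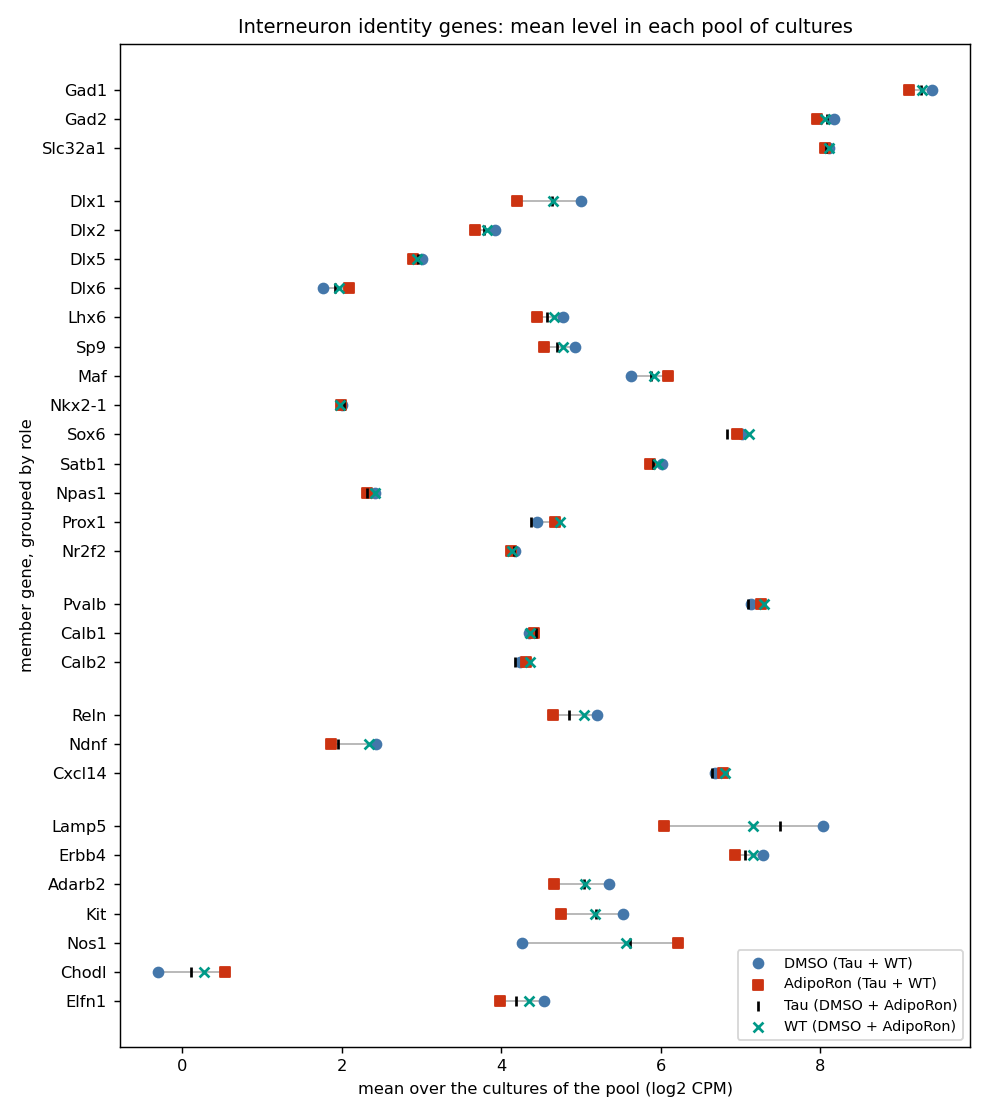
Mean level of each of the 29 members (x axis, log2 CPM) in the DMSO pool (circle), AdipoRon pool (square), Tau pool (bar) and WT pool (cross), grouped by role on the y axis, with a grey line joining the DMSO and AdipoRon means. The lines of Lamp5, from 8.04 to 6.05, and Nos1, from 4.26 to 6.22, are the longest, while the Tau and WT marks lie near each other for most members.

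In the DMSO and AdipoRon pools, 9 of the 29 members differed by at least 0.5 on the log2 scale, the fold used here to describe a difference. Nos1 and Chodl were higher in the AdipoRon pool (2 members, 6.90%), against 4.36% of all 19693 genes in both tables. Lamp5, Dlx1, Kit, Adarb2, Ndnf, Elfn1 and Reln were lower (7 members, 24.1%), against 6.39% of all genes. The other 20 members lay between -0.38 and 0.46. At a mean of at least 1 log2 CPM, the shares over 14294 genes were 3.71% higher and 4.81% lower, and Chodl was the 1 of the 9 members below that level.

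The middle of the list lay somewhat below that of all genes. The members' median difference was -0.11 (interquartile range -0.38 to 0.07), against 0.02 (-0.13 to 0.16) for all genes, and 20 of 29 members were below 0, against 45.0% of all genes. Lists of 5 neuronal and 7 excitatory markers, described further below, had medians of -0.20 and -0.15, with 5 genes below 0 in each. A middle below that of all genes was therefore not particular to the members. Summed over the 29 members, the level was 2524 CPM in the DMSO pool and 2128 CPM in the AdipoRon pool. Lamp5 accounted for 197 CPM and Gad1 for 119 CPM of that gap of 396 CPM, and the sums without Lamp5 were 2262 and 2062 CPM.

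Nos1 was the member with the largest excess in the AdipoRon pool. The enzyme makes nitric oxide in a sparse set of cortical interneurons. Its mean was 4.26 log2 CPM in the DMSO pool and 6.22 in the AdipoRon pool, a ratio of 3.88, with 5.62 in the Tau pool and 5.56 in the WT pool. Its difference of 1.96 exceeded that of 99.9% of all genes. Chodl, a lectin-like membrane protein, stood at -0.30 log2 CPM in the DMSO pool and 0.53 in the AdipoRon pool, a difference of 0.83. Its Tau and WT pools stood at 0.12 and 0.28. These levels are low (0.813 CPM in the DMSO pool and 1.45 CPM in the AdipoRon pool). Maf, a transcription factor of medial eminence interneurons that macrophages also use, was next, at 5.63 and 6.10 log2 CPM in the DMSO and AdipoRon pools, and at 5.88 and 5.91 in the Tau and WT pools.

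Lamp5 lay as far in the other direction. Its mean was 8.04 log2 CPM in the DMSO pool and 6.05 in the AdipoRon pool (263 and 66.1 CPM, a ratio of 0.251), with 7.50 in the Tau pool and 7.16 in the WT pool, and 0.295% of all genes had a lower difference. Besides neurogliaform cells, excitatory neurons of the cortex express Lamp5, so its level is not a measure of interneurons alone. In these bulk cultures, fewer cells of a type and less RNA per cell cannot be told apart for any member.

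Several other subtype markers were lower in the AdipoRon pool. Kit, a receptor tyrosine kinase, had means of 5.53 log2 CPM in the DMSO pool, 4.75 in the AdipoRon pool, 5.19 in the Tau pool and 5.17 in the WT pool. Adarb2, an RNA-editing family protein that marks caudal eminence interneurons, stood at 5.35, 4.67, 5.04 and 5.05 in the same order. For Elfn1, a synaptic adhesion protein, the means were 4.53, 3.98, 4.19 and 4.35. These levels put the AdipoRon pool lowest and the DMSO pool highest for each of the 3 genes, with differences of -0.77, -0.69 and -0.55.

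Reln encodes a secreted glycoprotein of the extracellular matrix, and Ndnf a secreted factor of neurogliaform cells in layer 1. Reln had means of 5.20 log2 CPM in the DMSO pool, 4.66 in the AdipoRon pool, 4.85 in the Tau pool and 5.04 in the WT pool. Ndnf stood at 2.43, 1.87, 1.95 and 2.34. Both were lower in the AdipoRon than in the DMSO pool, by 0.55 and 0.56, and lower in the Tau than in the WT pool, by 0.19 and 0.39. Cxcl14, a chemokine of caudal eminence interneurons, was the secreted member on the other side, at 0.10. Erbb4, the neuregulin receptor of many interneurons, was lower in the AdipoRon pool by 0.34.

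Among the 13 transcription factors, Dlx1 alone reached the fold of 0.5, and 10 of 13 were below 0. Dlx1, a homeodomain factor of the whole lineage, had means of 5.00 log2 CPM in the DMSO pool, 4.20 in the AdipoRon pool, 4.64 in the Tau pool and 4.65 in the WT pool, and 2.68% of all genes had a lower difference. Its neighbour Dlx2 differed by -0.26 between the AdipoRon and DMSO pools, Dlx5 by -0.11 and Dlx6 by 0.33, so the 4 Dlx genes did not lie on 1 side. Of the others below 0, Sp9 and Lhx6 lay lowest, at -0.38 and -0.33. Satb1, Npas1, Sox6, Nr2f2 and Nkx2-1 lay between -0.15 and -0.01, and Prox1 at 0.23.

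The 3 calcium binding proteins, which mark separate interneuron classes, were each slightly higher in the AdipoRon pool. Pvalb, the parvalbumin of fast-spiking cells, differed by 0.13, Calb2 (calretinin) by 0.07 and Calb1 (calbindin) by 0.06. Pvalb stood at 7.13 log2 CPM in the DMSO pool and 7.26 in the AdipoRon pool. Their median of 0.07 contrasts with medians of -0.22 for GABA synthesis and transport, -0.10 for transcription factors, and -0.55 for both the secreted proteins and the membrane proteins and enzymes.

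**Figure D2:**
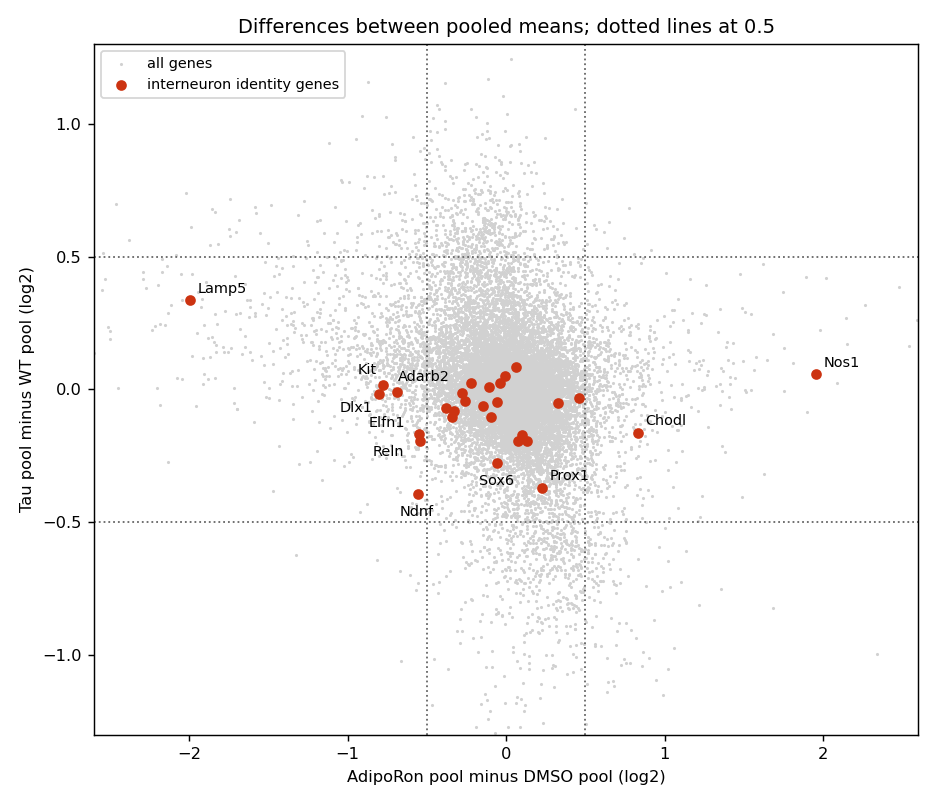
Each point is a gene, with AdipoRon pool minus DMSO pool on the x axis and Tau pool minus WT pool on the y axis (both log2), for the 19399 genes in all 4 tables (grey) and the 29 members (red); dotted lines are at 0.5 in each direction, and 75 genes lie outside the plotted range. Members spread from -1.99 (Lamp5) to 1.96 (Nos1) along the x axis and stay between -0.39 and 0.34 on the y axis.

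Between the Tau and WT pools, no member reached a difference of 0.5 in either direction, where 4.22% of all 19890 genes in both tables were higher in the Tau pool and 3.51% lower. The members ranged from -0.39 to 0.34, and 25 of 29 were under 0.25 in size. Among all genes, 12.6% were at least 0.25 higher in the Tau pool and 8.85% at least 0.25 lower. Below 0 were 21 of 29 members, against 49.3% of all genes. The members' median was -0.05 (interquartile range -0.17 to 0.01). The GABA synthesis and transport genes lay near 0, with Gad1 at -0.01, Gad2 at 0.02 and Slc32a1 at -0.05.

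The 3 members highest in the Tau pool relative to the WT pool were Lamp5, at 0.34, Calb1, at 0.08, and Nos1, at 0.06. The unequal share of AdipoRon cultures in the Tau and WT pools enters these values, most for Lamp5 and Nos1, and was not removed. Calb1 had means of 4.44 log2 CPM in the Tau pool and 4.36 in the WT pool, with 4.35 in the DMSO pool and 4.42 in the AdipoRon pool. Ndnf, Prox1 and Sox6 were lowest, at -0.39, -0.37 and -0.28. Prox1, a homeodomain factor of caudal eminence interneurons, stood at 4.37 log2 CPM in the Tau pool, 4.74 in the WT pool, 4.45 in the DMSO pool and 4.68 in the AdipoRon pool. Sox6, an SRY-related factor of medial eminence interneurons, stood at 6.83, 7.11, 7.02 and 6.96 in the same order. Oligodendrocyte precursors also express both of these factors. All 7 markers fixed for the oligodendrocyte lineage were lower in the Tau pool (median -0.45, from -0.84 to -0.17), and their summed level was 1154 CPM in the Tau pool and 1505 CPM in the WT pool. The part of these cells in the Prox1 and Sox6 values was not tested.

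The 4 comparisons that the tables were built for, AdipoRon with DMSO in each genotype and Tau with WT in each treatment, could be described only as far as the pooled means limit them. For each gene, 10 times the DMSO mean plus 11 times the AdipoRon mean should equal 10 times the Tau mean plus 11 times the WT mean, in CPM, if each value is a mean over its cultures. Over the 19399 genes in all 4 tables, the log2 ratio of the 2 sums was -0.000859 on average with an SD of 0.00486, and at most 0.0141 in size among the members. The 4 group means of a gene are then known up to 1 number, and since no group mean can be below 0, that number has limits. An error of up to 0.03 on the log2 scale was allowed in each pooled mean.

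These limits fixed a direction for Nos1 in both genotypes and for Lamp5 in Tau neurons. With AdipoRon, the group mean of Nos1 was higher than with DMSO by at least 0.549 on the log2 scale in Tau neurons and by at least 0.346 in WT neurons, whatever the split between genotypes. Lamp5 was lower with AdipoRon in Tau neurons, at -0.12 or below, while in WT neurons its limit was 0.02 or below, which does not fix a sign. Of all genes, 0.103% had a direction fixed as higher in both genotypes and 0.278% as lower. For every other member, neither AdipoRon comparison had a fixed direction: Dlx1 was limited to at most 2.82 in Tau and 1.63 in WT neurons, and Kit to at most 2.81 and 1.78. No member had a fixed direction for Tau against WT in either treatment. Nos1 under AdipoRon lay between -0.68 and 1.01 for Tau minus WT, and Lamp5 under DMSO between -0.74 and 1.35.

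**Figure D3:**
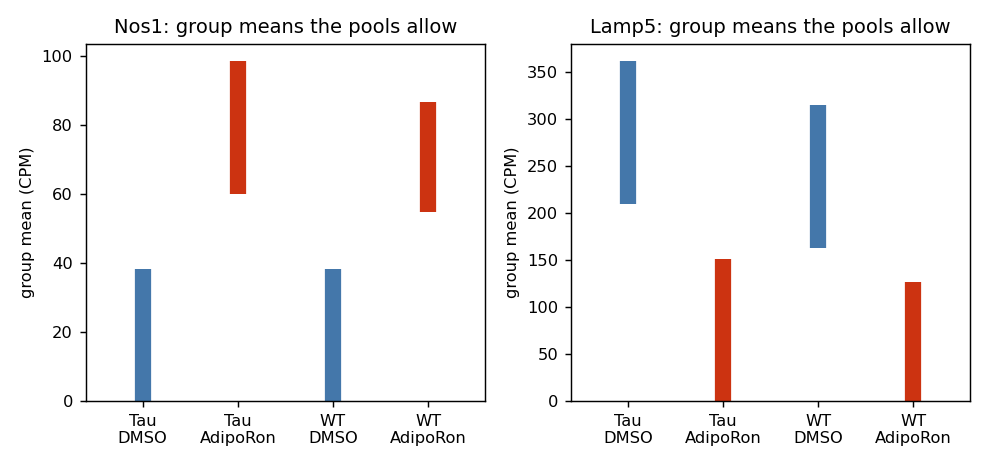
Range of group means (y axis, CPM, from 0) that the 4 pooled means allow for Nos1 (left) and Lamp5 (right) in each of the 4 groups, with the pooled means taken as exact; bars are the lowest to highest possible mean, not a spread over cultures. For Nos1 the AdipoRon groups start at 60.1 (Tau) and 54.7 (WT) and both DMSO groups end at 38.3 CPM; for Lamp5 the DMSO groups start at 210 (Tau) and 164 (WT) and the AdipoRon groups end at 152 and 127 CPM.

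One further contrast, Tau neurons with AdipoRon against WT neurons with DMSO, can be computed for every gene by 2 routes: from the Tau and DMSO pools, or from the AdipoRon and WT pools. It joins genotype and treatment, and also the fibrils if WT cultures were not seeded, and these cannot be told apart in it. With the same allowance in each pooled mean, 17 members had a lower mean in Tau neurons with AdipoRon by both routes, against 26.0% of all 19399 genes, and 4 a higher one (Dlx6, Maf, Nos1 and Chodl), against 30.5%. The direction of the other 8 members was not fixed. Nos1 was higher by 60.1 CPM by the first route and 59.6 CPM by the second, and Maf by 18.2 and 18.0 CPM. Lamp5 was lower, at -164 and -170 CPM, and Gad1 at -124 and -137 CPM. The 2 routes differ where the 2 sums described above are not exactly equal. The log2 ratio of those sums was -0.0141 for Lamp5 and -0.00736 for Gad1. In an abundant gene, a small ratio of this kind is large in CPM.

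Levels of different genes can be compared only per length, here as log2 CPM per kilobase of the canonical transcript. In the DMSO pool, Gad1 was the most abundant member on this scale (7.35), followed by Lamp5 (6.86), Slc32a1 (6.59), Gad2 (5.57) and Pvalb (5.48). In the AdipoRon pool, Gad1 (7.07) was followed by Slc32a1 (6.53) and Pvalb (5.61), and Lamp5 (4.87) stood sixth in place of second. Nos1 moved from place 24 (0.91) to place 12 (2.87) of 29, the largest shift of place among the members. Chodl (-1.70) and Ndnf (-0.91) held the lowest places in the DMSO pool. Whether neighbours in this order differ beyond the spread over cultures is not known.

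Of the 29 members, 10 overlap another listed gene, on the opposite strand, and the strand used in counting is not given in the sources used here. Where exons overlap, reads of the paired genes cannot be told apart without it, and how much of each member overlaps was not measured. Dlx1as, an antisense transcript at Dlx1, had a mean of 4.77 log2 CPM in the DMSO pool and 2.59 in the AdipoRon pool, a difference of -2.18, so the value of Dlx1 is uncertain. Dlx6os2, at Dlx6, stood at -1.15 and -2.11 log2 CPM, far below Dlx6 itself. The partners of Gad1, Slc32a1, Sp9, Maf, Sox6, Npas1, Prox1 and Nr2f2 had differences from -0.07 to 0.39 between the AdipoRon and DMSO pools where both list them. Lamp5, Nos1, Kit, Adarb2, Reln, Ndnf, Chodl and Elfn1 had no such partner.

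Genes that handle GABA or build inhibitory synapses lay near 0. None of the 8 genes reported differed by 0.5 between the AdipoRon and DMSO pools, and their median was -0.00625. Slc12a5, the chloride exporter KCC2, was at 0.01, Slc12a2, a chloride importer, at 0.21, and Gphn, the scaffold protein gephyrin, at -0.32. In the Tau and WT pools, Slc6a13, a GABA transporter of the meninges, was the 1 gene of the 8 past 0.5, at 1.11, from means of 0.44 and -0.66 log2 CPM.

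Other transcripts of the lineage were lower in the AdipoRon pool to unequal degrees. Nxph1, which encodes a secreted ligand of neurexins, differed by -0.24 between the AdipoRon and DMSO pools. Dlx6os1, a noncoding RNA of the Dlx5 and Dlx6 locus, had means of 5.02 log2 CPM in the DMSO pool and 3.30 in the AdipoRon pool, a difference of -1.71. Dlx1as and Dlx6os1 were thus lower by more than any of the 4 Dlx coding genes. All 8 interneuron peptides were lower in the AdipoRon pool, 7 of them past 0.5, from -0.13 (Sst) to -2.20 (Vip) and -3.11 (Crh).

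**Figure D4:**
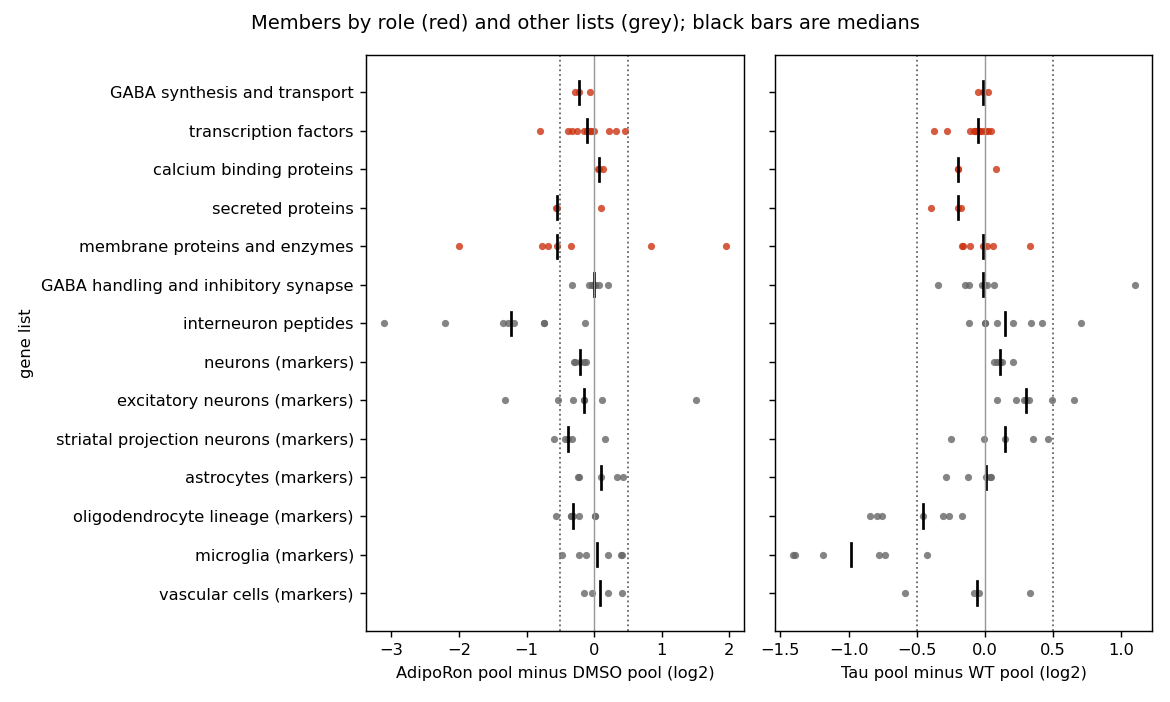
Differences of single genes (points, log2) for the members by role (red) and for other lists (grey), with AdipoRon pool minus DMSO pool on the left and Tau pool minus WT pool on the right; black bars are list medians and dotted lines are at 0.5. Among the lists plotted, the interneuron peptides have the lowest median on the left (-1.23) and the microglial markers on the right (-0.98).

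Markers of other cells moved with the pools as well. The cultures held the markers of neurons at high levels (Map2 at 9.50 to 9.70 and Snap25 at 9.81 to 10.11 log2 CPM over the 4 pools) but also those of astrocytes (Gfap at 10.70 to 11.04). All 5 neuronal markers were lower in the AdipoRon than in the DMSO pool, by 0.13 to 0.29, and higher in the Tau than in the WT pool, by 0.07 to 0.21. Of 7 excitatory markers, all were higher in the Tau pool (median 0.31), and between the AdipoRon and DMSO pools they ran from -1.32 (Neurod6) to 1.51 (Neurod2). All 6 microglial markers were lower in the Tau pool (median -0.98), with a summed level of 137 CPM against 245 CPM in the WT pool, and the summed level of the 5 astrocyte markers was 3770 CPM in the DMSO pool and 4128 CPM in the AdipoRon pool. Without Gfap, the other 4 summed to 2109 and 2024 CPM, but they did not lie on 1 side. Between the AdipoRon and DMSO pools, Aldh1l1 differed by 0.42 and Aldoc by 0.10, Aqp4 by -0.23 and Slc1a3 by -0.24, with Gfap at 0.34. The oligodendrocyte lineage markers had a median difference of -0.31 between the AdipoRon and DMSO pools and summed to 1442 CPM in the DMSO pool and 1249 CPM in the AdipoRon pool. Markers of striatal projection neurons, which are GABAergic too, had a median difference of -0.39, with 4 of 5 below 0. Of the 5 vascular markers, Cldn5 was listed in no table and Pecam1 stood at -1.02 to -0.98 log2 CPM. The others were higher, with Flt1 at 1.19 to 1.77, Col1a1 at 3.74 to 4.07 and Pdgfrb at 4.72 to 4.92 log2 CPM. The 4 listed vascular markers differed by -0.15 to 0.42 between the AdipoRon and DMSO pools. Between the Tau and WT pools they ran from -0.58 (Flt1) to 0.34 (Col1a1). The part of these cells in the members' values was not tested.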

How the data were processed

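Polyadenylated RNA was sequenced from 21 cultures of primary cortical neurons, with groups taken from the sample titles. According to the methods, the authors aligned reads to mm10 with STAR, quantified genes with RSEM and compared groups with a generalized linear model in edgeR. Elsewhere the paper names GRCm39, and the names of the tables point to Rsubread. Library normalisation, filters and strand are not given in the sources used here.

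In the 4 deposited tables, the authors' mean level of each gene is on a log2 scale (log2 CPM over the cultures of both groups compared, with edgeR's prior count). The tables list 19811, 20294, 21378 and 21378 genes. Their remaining columns hold the authors' comparisons (log2 fold change, likelihood ratio, p-value, false discovery rate and a label of the call) and Entrez numbers, and none of the comparison columns was used. Values per culture were not analysed here, so no interval that needs the depth of a culture is given.

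Differences of pooled means were computed with Python 3.11.15, pandas 2.3.3 and numpy 2.4.6, over all genes in both tables. A difference of at least 0.5 on the log2 scale is described as past the fold. Group means were limited by requiring each to be at least 0, after allowing 0.03 on the log2 scale in each pooled mean. The code was checked on simulated pools built as exact means of their cultures. Those pools held no prior count and no separate normalisation, so the check says nothing on how these affect the limits. Promoters and gene positions came from RefSeq (GRCm38.p6, the assembly of mm10), and transcript lengths and overlaps from GENCODE vM39 by symbol. Named in full were Gad1, Gad2, Slc32a1, members past the fold, and the 3 highest and 3 lowest of each difference. Members and lists were chosen with earlier results of these data known, and the allowance and motifs after seeing these values. Alternatives were a fold of 0.25 or 1, a minimum level of 1 log2 CPM, differences centred on the median of all genes, genes in all 4 tables and an allowance of 0.01. Some genes of the wider lists are not reported here and were left out of their counts and medians. Subtracting edgeR's prior count was not run because the tables hold no library sizes.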

Additional observations from a re-analysis of the deposited data

How the results depend on the processing

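The number of members past the fold depended on the fold. Between the AdipoRon and DMSO pools, 4 members were higher and 12 lower at a fold of 0.25 (15.9% and 15.1% of all genes), and 1 was higher and 1 lower at a fold of 1 (0.675% and 1.75%), in place of 2 and 7 at 0.5. With genes of at least 1 log2 CPM, 1 was higher. Between the Tau and WT pools, 1 member was higher and 3 were lower at a fold of 0.25 (12.6% and 8.85% of all genes), in place of 0. With an allowance of 0.01, chosen after seeing the data, 2 members in place of 1 had a direction fixed with AdipoRon in both genotypes, Lamp5 being added. In the other 16 of the 24 values recomputed, the change was within the limits set for calling a value moved. No paired analysis was possible because the tables give no values per culture, and for the same reason no culture could be left out. The tables give no depth or counts per culture, so the counting error of low members such as Chodl and Ndnf was not estimated.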
